A study of Mus musculus with 16 samples.

Results

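The 10 genes described here are the braking and driving partners of the kinases that take a cell out of the G1 phase: the CDK inhibitors Cdkn1a, Cdkn1b and Cdkn1c (the CIP/KIP family) and Cdkn2a, Cdkn2b, Cdkn2c and Cdkn2d (the INK4 family), and the D cyclins Ccnd1, Ccnd2 and Ccnd3. They were found by symbol among the 55359 genes of the count files, and all 10 passed the filter on low counts that kept 17190 genes for testing. They were followed in 16 RNA-seq libraries of wild-type MPI-2 cells, a mouse line of self-renewing alveolar-like macrophages that grows in GM-CSF. In each group 4 libraries were made: cells exposed to Mycobacterium abscessus for 1 day or for 5 days, and uninfected cells of the same days. All 4 groups share the GM-CSF medium and the genotype. The strain and dose of the bacterium, the share of cells that took it up and the passage of each culture were not stated in any source at hand, so a library stands for a whole exposed culture of 1 cell line. In such bulk RNA, fewer cells expressing a gene and less of its RNA in each cell cannot be told apart.

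D cyclins are made when growth factors call on a cell to divide. They bind CDK4 and CDK6, and the pair phosphorylates the retinoblastoma protein, which then lets go of the E2F transcription factors that switch on genes of DNA replication. INK4 proteins bind CDK4 and CDK6 and keep D cyclins off, whereas CIP/KIP proteins bind assembled cyclin-CDK pairs, above all those of cyclin E and cyclin A with CDK2, and can also help D cyclins and CDK4 to assemble. Alveolar macrophages renew themselves in the lung, with GM-CSF as their growth factor. These genes therefore bear on the cell cycle of a self-renewing macrophage exposed to a mycobacterium.

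Total counts per library lay between 46154875 and 81995629. Macrophage markers summed to 3640 to 4200 CPM (counts scaled to a common library total with TMM factors) in uninfected libraries, 5660 to 6560 CPM in exposed day 1 and 8140 to 13600 CPM in exposed day 5 libraries, and all 9 were present in every group. Lyz2 held the largest part of that sum in every group, with means of 1710 CPM in uninfected day 1 and 4080 CPM in exposed day 1 cells. At day 5 it had 2260 CPM in uninfected and 7900 CPM in exposed cells, whereas Mrc1 of the same list stood at 375 and 102 CPM. The 8 alveolar macrophage markers summed to 15900 to 26400 CPM in uninfected, 10900 to 13800 CPM in exposed day 1 and 7130 to 9540 CPM in exposed day 5 libraries. Chil3 made up most of that difference (16100 and 2990 CPM at day 5). Pparg (383 and 185 CPM), Fabp4 (859 and 411 CPM), Fabp5 (1220 and 689 CPM) and Ear1 (170 and 87.8 CPM) were lower too. Marco (2270 and 2350 CPM), Car4 (1620 and 1990 CPM) and Siglecf (7.18 and 8.17 CPM) were not lower. The defining genes of other cells were at or near 0: Epcam, Sftpc, Col1a2, Cd3e, Cd8a and Flt3 each stood at 0 to 0.0362 CPM in every library, and Ly6g reached 0.485 CPM. Cdh1, Pdgfra and S100a8 made up nearly all of the epithelial (14 to 73.8 CPM), fibroblast (9.75 to 22.4 CPM) and neutrophil (300 to 1050 CPM) sums. The endothelial list summed to 2.41 to 3.85 CPM in the other groups and 6.18 to 9.23 CPM in exposed day 5 libraries, where Cdh5 and Pecam1 held most of it. The dendritic list summed to 3.35 to 4.3 CPM and 6.48 to 8.1 CPM, nearly all of it Zbtb46. T cell sums stayed at or under 0.168 CPM. The part of these shifts in the results below was not tested.

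Among themselves the 10 genes covered a wide range of levels, compared here per kilobase of the longest coding transcript. For Ccnd3 that length is 2113 bases, against 8775 with all its exons merged, so its place in the order depends on the length taken. Cyclin D2 led in every group, with 255 ± 5.47 CPM per kb (SD, n = 4) in uninfected day 1 and 262 ± 4.69 CPM per kb in uninfected day 5 cells. Cdkn1a, the inhibitor p21, came next with 133 ± 1.51 and 144 ± 7.28 CPM per kb, and Ccnd3 followed with 78.0 ± 3.75 and 100.3 ± 6.24 CPM per kb. In uninfected cells Cdkn2d came after these (30.5 ± 0.758 CPM per kb at day 1), and then Cdkn1b (20.4 ± 0.469 CPM per kb). The libraries of Cdkn1b and Cdkn2c overlapped at uninfected day 1, as did those of Ccnd1, Cdkn2c and Cdkn2a, each with the next, at uninfected day 5. Cdkn1c closed the order in all 4 groups, with 0.207 to 0.468 CPM per kb. In exposed day 5 cells more neighbours in the order overlapped than in the other groups. Ccnd2 fell to 175 ± 13.6 CPM per kb and overlapped Cdkn1a (132 ± 43.0 CPM per kb), which stood clear of the next gene. Cdkn1b, Ccnd3 and Cdkn2d formed an overlapping chain at 21.7, 20.3 and 15.4 CPM per kb. Ccnd1 was last but 1 with 3.21 ± 0.863 CPM per kb, overlapping Cdkn2c.

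All 3 D cyclins fell at day 5 of exposure, by unlike amounts. Ccnd3 (ENSMUSG00000034165.17), which encodes cyclin D3, stood at 213, 224, 217 and 193 CPM in uninfected day 5 replicates 1 to 4 and at 50.7, 39.0, 42.1 and 39.9 CPM in the exposed ones. Every exposed library thus lay far under every uninfected one, and the fitted change was -2.30 ± 0.09 (log2 fold change ± SE throughout; edgeR's quasi-likelihood test, Benjamini-Hochberg adjusted p = 5.93e-13), or 4.93-fold lower. Ccnd1 (ENSMUSG00000070348.6), cyclin D1, stood at 57.3, 63.9, 83.7 and 76.9 CPM in uninfected and at 8.38, 11.9, 11.6 and 16.2 CPM in exposed day 5 libraries. It was 5.87-fold lower (-2.55 ± 0.15, adjusted p = 9.24e-11), with no overlap. Ccnd2 (ENSMUSG00000000184.13), cyclin D2, the most abundant of the 3, stood at 1672, 1694, 1655 and 1623 CPM in uninfected and at 1178, 1041, 1021 and 1181 CPM in exposed day 5 libraries, which again did not overlap. Its decrease was the smallest of the D cyclins, 1.503-fold (-0.59 ± 0.08, adjusted p = 5.37e-06).

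**Figure D1:**
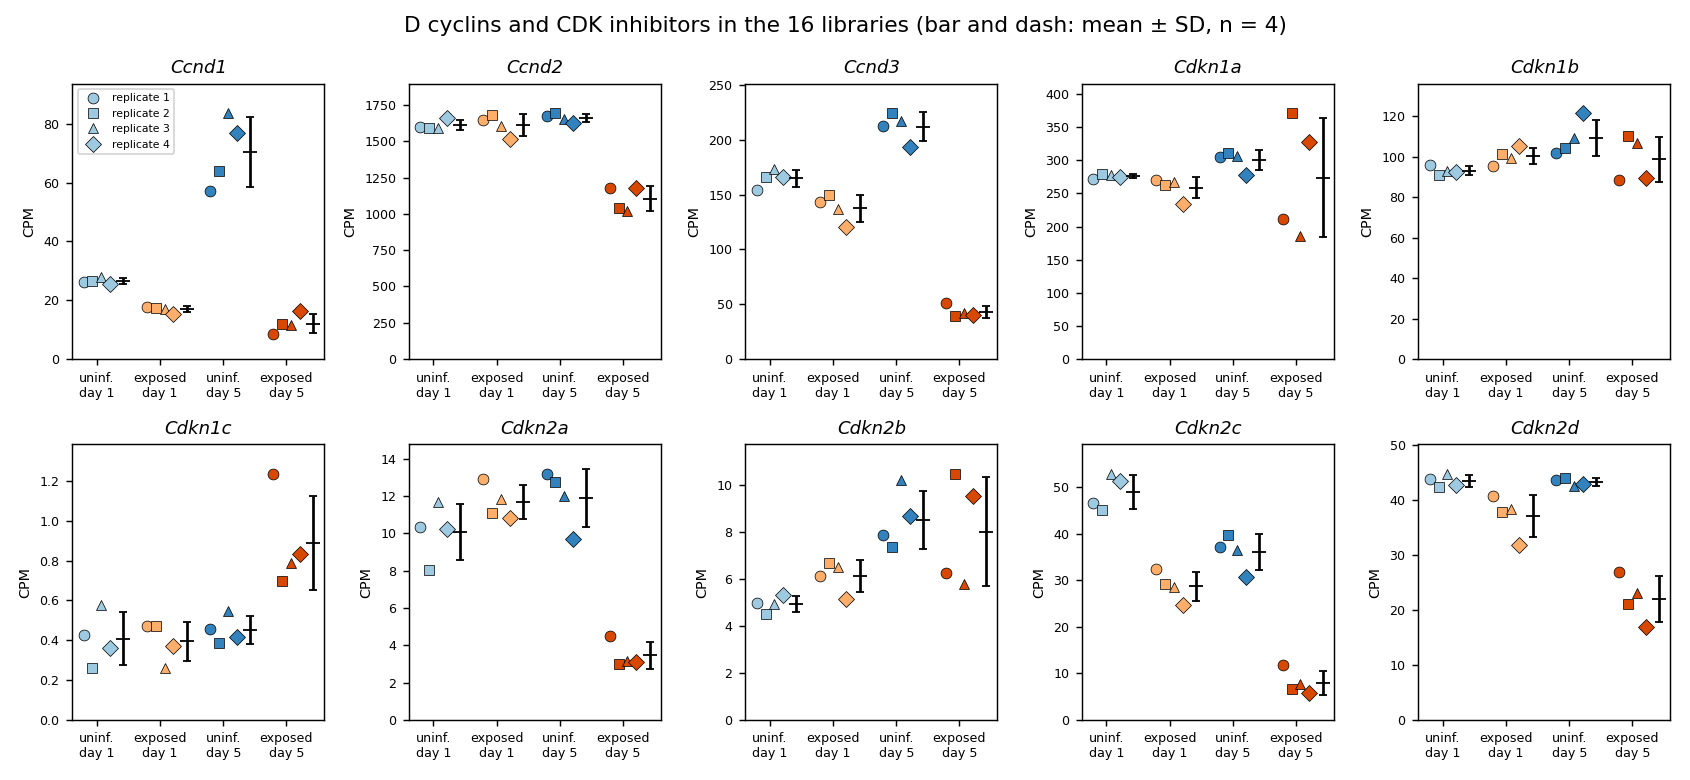
CPM of each gene (vertical axes from 0, 1 scale per gene) in the 4 libraries of each group, with symbols for replicate numbers and the mean ± SD (n = 4) beside them. Ccnd3, Ccnd1, Cdkn2a, Cdkn2c and Cdkn2d drop in all 4 exposed day 5 libraries, whereas Cdkn1a splits into 2 high and 2 low ones around the uninfected level.

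At day 1 the D cyclins already differed, though far less. Ccnd1 stood at 26.2, 26.7, 28.1 and 25.7 CPM in uninfected and at 17.6, 17.5, 17.2 and 15.4 CPM in exposed libraries, a fall of 1.58-fold (-0.66 ± 0.15, adjusted p = 0.00325) with no overlap. Ccnd3 went from 154, 166, 173 and 166 CPM to 143, 150, 137 and 121 CPM, and its small fall passed the threshold narrowly (-0.26 ± 0.09, adjusted p = 0.0421). That call did not hold in 9 of the 16 fits that each left out 1 library, where the adjusted p reached 0.146, so it rests on the full set. Ccnd2 was level at day 1, at 1591 to 1663 CPM in uninfected and 1513 to 1683 CPM in exposed libraries (0.00 ± 0.08, adjusted p = 0.996).

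Between uninfected day 1 and uninfected day 5, Ccnd1 and Ccnd3 moved the other way. In uninfected cells Ccnd1 rose from 26.6 ± 1.03 CPM at day 1 to 70.4 ± 12 CPM at day 5 (1.40 ± 0.15, adjusted p = 2.75e-06), and Ccnd3 from 165 ± 7.93 to 212 ± 13.2 CPM (0.36 ± 0.09, adjusted p = 0.00821). Ccnd2 stayed at 1611 ± 34.6 and 1661 ± 29.7 CPM. Between exposed day 1 and exposed day 5, Ccnd3 fell by 1.68 on the log2 scale (SE 0.09, adjusted p = 1.27e-10), from 138 ± 12.5 to 42.9 ± 5.38 CPM. Ccnd1 fell less over those days, from 16.9 ± 1.03 to 12 ± 3.23 CPM, with overlapping libraries (-0.49 ± 0.15, adjusted p = 0.00881). That call was lost with replicates 3 and 4 only (-0.23, adjusted p = 0.349), and without the 2 libraries described below that carry another code (-0.47, adjusted p = 0.0859). The gap in Ccnd1 at day 5 thus sets exposed cells, which stood a little under their day 1 level, against uninfected cells, whose level had gone up. The comparisons share groups (the exposed day 5 libraries enter both), so their values are given side by side and not as separate support.

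Of the 4 INK4 genes, 3 fell at day 5, Cdkn2b being the exception, and 0 rose, where 28.4% of all genes tested were called lower. The 4 genes had a median log2 fold change of -1.38 against 0.02 over all genes tested. Cdkn2c (ENSMUSG00000028551.15), which encodes p18, was the INK4 gene that moved most. Its 4 uninfected day 5 libraries held 37.2, 39.7, 36.5 and 30.7 CPM and the exposed ones 11.7, 6.55, 7.79 and 5.78 CPM, a fall of 4.52-fold (-2.18 ± 0.16, adjusted p = 2.92e-09). It was also the inhibitor that had fallen by day 1, from 46.6, 45.1, 52.8 and 51.3 CPM to 32.3, 29.2, 28.6 and 24.7 CPM (-0.77 ± 0.15, adjusted p = 0.00165). Neither day showed any overlap between the groups.

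Cdkn2d (ENSMUSG00000096472.3), which encodes p19INK4d, an INK4 protein not to be confused with p19ARF, stood at 43.7, 44.0, 42.6 and 43.0 CPM in uninfected and at 26.9, 21.0, 23.1 and 16.9 CPM in exposed day 5 libraries (-0.98 ± 0.11, adjusted p = 2.04e-07). Its 4 exposed day 1 libraries, at 31.8 to 40.7 CPM, all lay under the uninfected ones at 42.4 to 44.8 CPM, but the difference was not called (-0.22 ± 0.10, adjusted p = 0.126), except when only those 8 libraries were fitted (adjusted p = 0.0138). The p15 gene Cdkn2b (ENSMUSG00000073802.6) was not called at day 5. It rose with time in uninfected cells, from 4.93 ± 0.336 to 8.53 ± 1.24 CPM (0.79 ± 0.17, adjusted p = 0.00258), and the exposed day 5 libraries, at 6.27, 10.5, 5.80 and 9.54 CPM, lay on both sides of that level (-0.09 ± 0.16, adjusted p = 0.662).

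Cdkn2a (ENSMUSG00000044303.7) needs its sequence to be read. The locus gives 2 proteins from separate first exons and a shared second exon: p16INK4a, an INK4 inhibitor, and p19ARF, which binds MDM2 and so stabilises p53. The gene count pools both. The first coding bases of the 2 transcripts, from GENCODE M21, are shown with their start codons in capitals, and the third line is the start of the run of 578 bases that both transcripts hold.
p16 transcript Cdkn2a-201: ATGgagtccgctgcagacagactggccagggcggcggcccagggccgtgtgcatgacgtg
p19ARF transcript Cdkn2a-202: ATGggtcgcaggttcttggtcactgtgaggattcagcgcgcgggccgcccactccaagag
start of the shared run: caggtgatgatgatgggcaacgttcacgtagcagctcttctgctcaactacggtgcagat
Counted from the start codon, the first base of that run is base 1 of a codon in the p16 transcript and base 2 in the p19ARF transcript, so the same letters are read in different frames. Of the 852 bases of the p16 transcript and the 895 of the p19ARF transcript, 578 are common, and a gene count cannot divide them.

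At day 5 the pooled Cdkn2a count stood at 13.2, 12.7, 12 and 9.71 CPM in uninfected and at 4.52, 3.01, 3.16 and 3.10 CPM in exposed libraries. Replicate 1 stood above the other exposed libraries, and the count was 3.44-fold lower in exposed cells (-1.78 ± 0.14, adjusted p = 4.34e-09). At day 1 the exposed libraries (12.9, 11.1, 11.8 and 10.8 CPM) overlapped the uninfected ones (10.3, 8.03, 11.7 and 10.2 CPM), with a change of 0.22 ± 0.14 that was not called. The exposure effect therefore differed between the days by -1.999 ± 0.20 (adjusted p = 6.03e-07 for the interaction), which was the second largest such difference among the 10 genes after that of Ccnd3.

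The CIP/KIP genes were not called lower at either day. Cdkn1b (ENSMUSG00000003031.15), which encodes p27, the inhibitor of resting cells, stood at 102, 104, 109 and 121 CPM in uninfected and at 88.5, 110, 107 and 89.2 CPM in exposed day 5 libraries (-0.15 ± 0.08, adjusted p = 0.132). Its higher pair, replicates 2 and 3, is the pair of libraries whose file names carry another library code (LAQ) than the other 14 (LAP). Without that pair Cdkn1b was called lower at day 5 (-0.30, adjusted p = 0.00223), as it was without replicate 2 alone (-0.21, adjusted p = 0.0367) and with scaling by library totals alone (-0.24, adjusted p = 0.0180). What the codes stand for is not given in the sources used here, and the code and the replicate cannot be told apart. Of all genes tested, 23.2% had both LAQ libraries above or both below the other exposed day 5 libraries. Among the 10 genes 3 did: Cdkn1b (higher), Cdkn1c and Ccnd2 (lower), and the last 2 kept their calls at day 5 without the pair.

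Cdkn1c (ENSMUSG00000037664.14), which encodes p57 and is an imprinted gene most active in embryonic tissue, was the sole gene of the 10 called higher at day 5. It is barely expressed in these cells: the uninfected day 5 libraries held 36, 25, 43 and 27 counts and the exposed ones 90, 48, 44 and 48 counts. That is 0.451 ± 0.0694 CPM against 0.889 ± 0.238 CPM (0.98 ± 0.28, adjusted p = 0.00602), with no overlap in CPM, and the call was lost with replicates 3 and 4 only (0.75, adjusted p = 0.189). The exons of an antisense gene cover 625 bases of Cdkn1c on the other strand. The files hold reverse-strand counts per their names, so reads of the 2 strands were counted apart.

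Cdkn1a (ENSMUSG00000023067.15), the p53 target p21 and by far the most abundant inhibitor, had the widest spread of the 10 in exposed day 5 libraries by the SD of log2 CPM (0.482). Replicates 1 to 4 held 211, 371, 186 and 327 CPM. Of these, 2 lay above all 4 uninfected day 5 libraries (305, 310.4, 307 and 277 CPM) and 2 below them. Those levels rest on TMM factors of 0.989, 0.845, 1.03 and 0.935 in replicates 1 to 4, lowest in the 2 high libraries. By plain library totals neither high library would lie above all 4 uninfected ones. With TMM scaling the mean difference was -0.13 ± 0.15 (adjusted p = 0.484), and it depended on single libraries: -0.31 without exposed day 5 replicate 2 (adjusted p = 0.0480, called) and 0.02 without replicate 3 (adjusted p = 0.921). At day 1 the 4 exposed libraries, at 270, 263, 268 and 235 CPM, lay under the uninfected ones at 272, 279, 278 and 275 CPM, by an amount that was not called (-0.09 ± 0.15, adjusted p = 0.705).

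**Figure D2:**
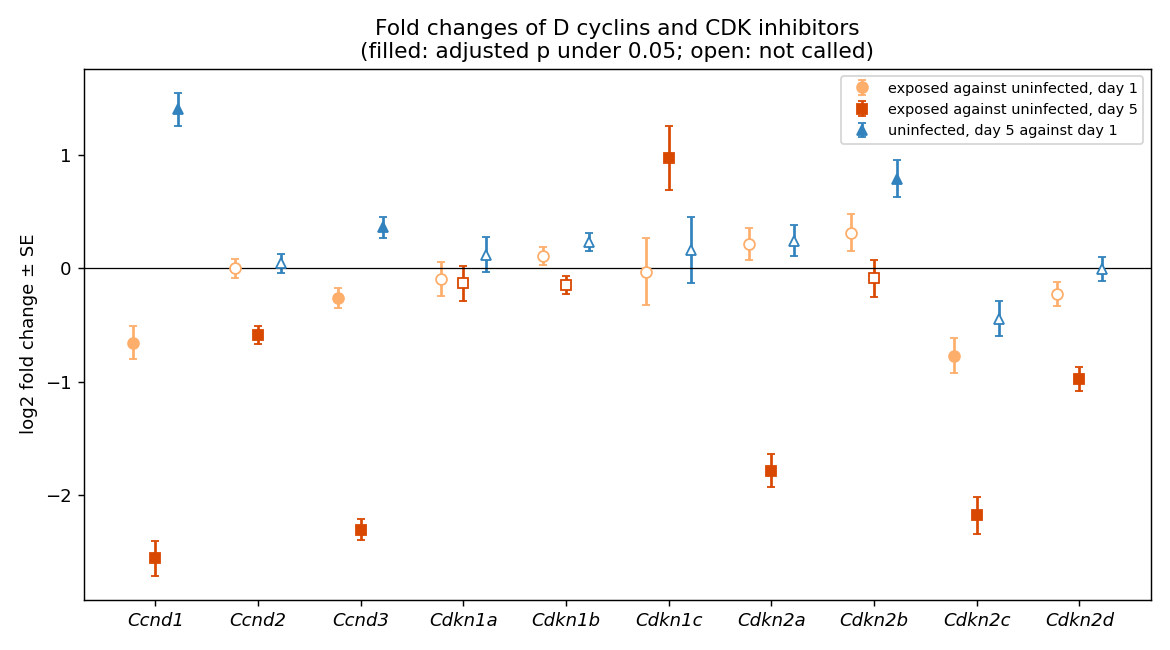
Log2 fold changes ± SE of the 10 genes (vertical axis) for exposure at day 1, exposure at day 5 and time in uninfected cells, with filled symbols for an adjusted p under 0.05. The day 5 values of Ccnd1, Ccnd3, Cdkn2c and Cdkn2a lie between -2.55 and -1.78. For time in uninfected cells, the called values (Ccnd1, Cdkn2b and Ccnd3) lie above 0.

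Counted together, 3 of the 10 genes were called lower and 0 higher at day 1, where 23.8% of all genes tested were called (13.4% higher, 10.5% lower). At day 5, 6 were called lower and 1 higher, against 57% of all genes (28.6% higher, 28.4% lower). The 10 genes had a median log2 fold change of -0.78 at day 5, with 0.02 over all genes tested. Libraries of exposed and uninfected cells did not overlap for 5 genes at day 1, all lower in exposed cells, and for 7 at day 5 (6 lower, 1 higher), against 39.3% (19.7% lower, 19.6% higher) and 46.6% (24.2% lower, 22.3% higher) of all genes. The exposure effect changed between days for 6 genes, all toward lower values at day 5, where 35.9% of all genes were called (16.4% higher, 19.5% lower). These were Ccnd3 (-2.04 ± 0.13), Cdkn2a (-1.999 ± 0.20), Ccnd1 (-1.90 ± 0.21), Cdkn2c (-1.41 ± 0.22), Cdkn2d (-0.75 ± 0.15) and Ccnd2 (-0.59 ± 0.12). The calls of Cdkn2d (-0.78, adjusted p = 0.0597) and Ccnd2 (-0.51, adjusted p = 0.162) were lost with replicates 3 and 4 only. For Cdkn1b the change was called lower without the LAQ pair (-0.40, adjusted p = 0.00246) and with library totals alone (-0.33, adjusted p = 0.0289). With time in uninfected cells 3 genes rose (Ccnd1, Cdkn2b and Ccnd3) and 0 fell, against 19.7% of all genes called (10.8% higher, 8.91% lower). Cdkn1b missed the threshold (0.23 ± 0.08, adjusted p = 0.0530) and passed it with the 1 CPM filter (adjusted p = 0.0301), when only uninfected libraries were fitted (0.00433), without the LAQ pair (0.00717) and without any 1 of the 4 exposed day 5 libraries. Uninfected libraries of the 2 days did not overlap for 5 of the 10 genes, 4 higher and 1 lower at day 5, against 35.5% of all genes (17.6% higher, 17.9% lower). Between exposed days 1 gene rose (Cdkn1c, 1.17 ± 0.29) and 6 fell, against 50.8% of all genes called (25.6% higher, 25.2% lower). The falls were largest for Cdkn2c (-1.85 ± 0.16), Cdkn2a (-1.76 ± 0.14) and Ccnd3, and exposed libraries did not overlap between days for 6 genes (5 lower, 1 higher), against 41% of all genes (21.5% lower, 19.5% higher). Without the LAQ pair, the day 5 counts became 7 lower and 1 higher, with Cdkn1b added.

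The balance of inhibitors and D cyclins was taken as the summed CPM per kb of the 7 inhibitors over that of the 3 cyclins, a description with no test. In uninfected day 1 libraries the ratio was 0.652, 0.635, 0.657 and 0.628. Exposed day 1 libraries had 0.635, 0.599, 0.641 and 0.614, which overlapped them. Uninfected day 5 libraries lay close together at 0.619, 0.611, 0.614 and 0.597. Exposed day 5 libraries had 0.728, 1.24, 0.762 and 0.963, so all 4 were above the other 12, and replicate 2 held more inhibitor than cyclin RNA per kb. On the log2 scale the mean went from -0.71 ± 0.02 in uninfected to -0.15 ± 0.35 in exposed day 5 cells, a difference of 0.57.

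That shift came with lower sums on both sides of the ratio. The D cyclins summed to 381 ± 9.67 CPM per kb in uninfected and 198 ± 15.0 CPM per kb in exposed day 5 cells, with no overlap. The inhibitors went from 233 ± 8.69 to 182 ± 42.1 CPM per kb, with exposed replicate 2 (231 CPM per kb) inside the uninfected range. INK4 genes alone went from 64.5 ± 3.21 to 28.3 ± 3.61 CPM per kb, and their share of inhibitor RNA from 27.7% ± 0.418 to 16.3% ± 4.8, whereas the CIP/KIP sum was 168 ± 5.57 and 154 ± 43.5 CPM per kb. Cdkn1a made up 61.9% ± 0.852 of inhibitor RNA in uninfected and 71.1% ± 7.50 in exposed day 5 cells. Without Cdkn1a the day 5 difference in balance was 0.13 and the groups overlapped, so the size of the shift rests on that gene. Weighting all genes alike, as the mean log2 CPM of the inhibitors minus that of the cyclins, gave 1.17 at day 5, and merged exon lengths gave 0.36. The mean of logs also turned the day 1 difference from -0.05 to 0.24.

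**Figure D3:**
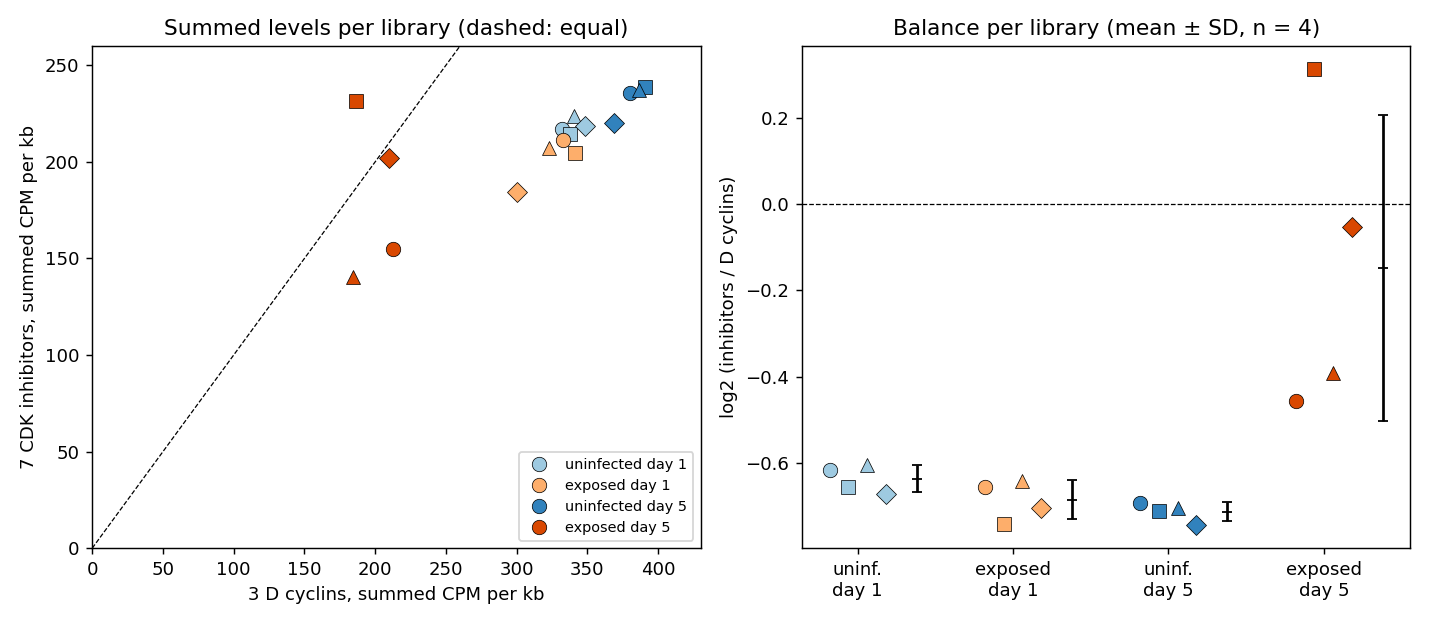
Left, summed CPM per kb of the 7 inhibitors (vertical) against that of the 3 D cyclins (horizontal) in each library, with a dashed line of equal sums. Right, log2 of their ratio by group with the mean ± SD (n = 4). The 12 other libraries form 1 cluster at ratios of 0.597 to 0.657, and the exposed day 5 libraries lie to its left, spread along the vertical axis.

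Within the D cyclins the makeup narrowed to cyclin D2. Its share of D cyclin RNA per kb was 74.9% ± 0.970 in uninfected and 78.6% ± 0.755 in exposed day 1 cells, and 68.8% ± 0.917 in uninfected and 88.1% ± 0.669 in exposed day 5 cells. Cyclin D3 went from 26.3% ± 0.998 to 10.3% ± 1.02 at day 5, and cyclin D1 from 4.94% ± 0.873 to 1.63% ± 0.421. The size of these shares depends on the length taken, which for Ccnd3 is 2113 bases here and 8775 with merged exons. Shares with merged exon lengths were not worked out. The exposed day 5 libraries agreed closely here, with Ccnd2 at 87.5% to 88.9% in all 4, although they disagreed on the inhibitors.

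The spread of the exposed day 5 libraries differed from gene to gene. On log2 CPM the SD over the 4 libraries was 0.482 for Cdkn1a, 0.441 for Cdkn2c, 0.425 for Cdkn2b and 0.389 for Ccnd1, but 0.166 for Cdkn1b, 0.173 for Ccnd3 and 0.113 for Ccnd2. The median over the 10 genes was 0.312, close to the 0.299 of all genes tested, and Cdkn1a lay at percentile 71.6 of them. In uninfected day 5 cells the SD of Cdkn1a had been 0.0747 and the median of the 10 genes 0.135, against 0.148 for all genes. For 9 of the 10 genes exposed day 5 was the group with the widest spread, the exception being Cdkn1c. The members' median fell to 0.190 without exposed day 5 replicate 1, so that library carries much of it.

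The 4 libraries did not fall in a common order. Cdkn1a and Cdkn2b both ran 2, 4, 1, 3 from high to low, an order shared by 13.5% of all genes tested. Cdkn2c and Cdkn2d both ran 1, 3, 2, 4, an order of 4.11% of genes, and Cdkn2a and Ccnd3 both ran 1, 3, 4, 2 (4.39%). Replicates 1 and 3, low in Cdkn1a, were also the pair with more RNA of 20 proliferation genes such as Mki67 and Mcm2. The mean log2 deviation of that list from the group mean was 0.65 in replicate 1, -0.48 in replicate 2, 0.34 in replicate 3 and -0.51 in replicate 4, and that of Cdkn1a was -0.32, 0.50, -0.50 and 0.32. For 20 genes of the p53 pathway the same means lay between -0.08 and 0.06. Genes that deviate in opposite directions cancel in such a mean, so it does not show how single genes of that list ran. The LAQ pair, replicates 2 and 3, stood together at an end of the order for Cdkn1b, Cdkn1c and Ccnd2, and for none of the other 7 genes. These are orders over 4 libraries with no test.

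**Figure D4:**
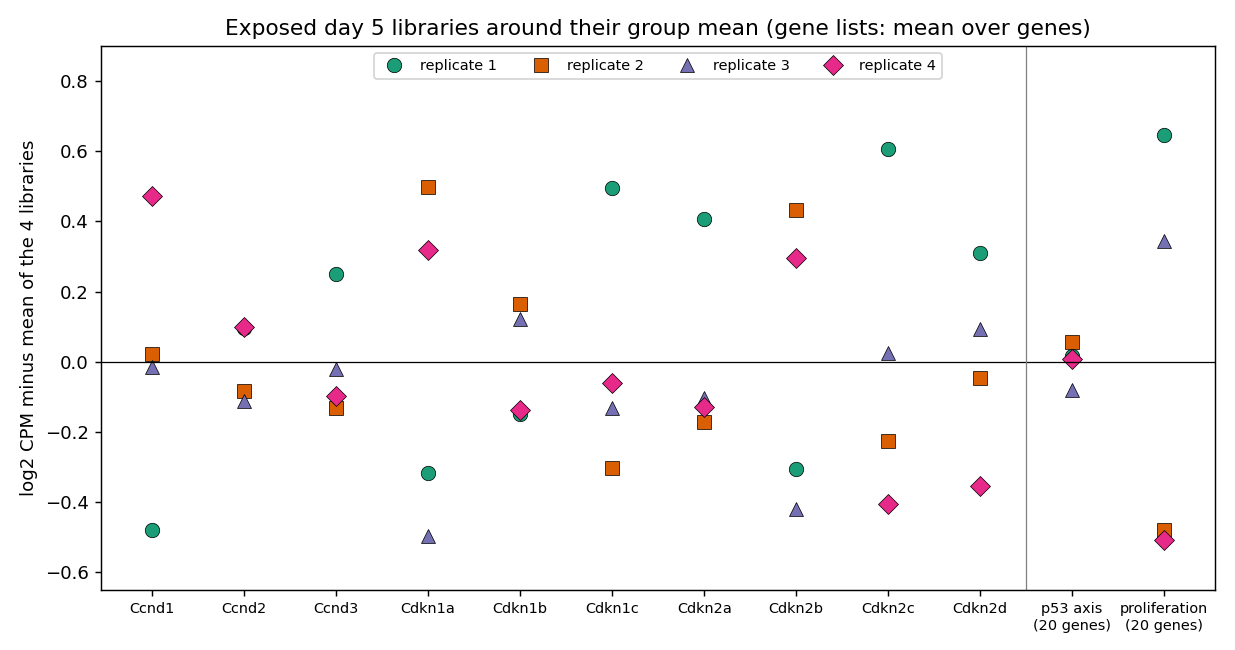
Log2 CPM of each exposed day 5 library minus the mean of the 4 (vertical axis), for the 10 genes and, right of the line, averaged over 20 p53 pathway and 20 proliferation genes. Replicates 2 and 4 are high in Cdkn1a and Cdkn2b and low in Cdkn2c and the proliferation list, and replicates 1 and 3 are above 0 in the latter.

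The partners of these proteins moved in the same days. Of 11 CDKs, cyclins and activators around the D cyclins, 7 were called lower and 2 higher at day 5, with a median of -0.72, against 28.4% and 28.6% of all genes tested. Ccne1, the cyclin E that follows the D cyclins, fell by 1.44 on the log2 scale (SE 0.11), and its kinase Cdk2 by 1.27 (SE 0.13). Cdk6, a kinase partner of all D cyclins, went the other way, from 62.1 ± 2.94 CPM in uninfected to 128 ± 7.23 CPM in exposed day 5 cells (1.04 ± 0.07, adjusted p = 3.99e-10), and was already higher at day 1 (0.39 ± 0.07). Its close relative Cdk4, which the naming rule had not picked and which was looked up after its value was seen, fell at day 5 (-0.68 ± 0.08).

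Downstream, 10 of 13 retinoblastoma-family and E2F genes were called lower and 2 higher at day 5 (median -0.61; all genes 28.4% and 28.6%), and 6 lower and 0 higher at day 1 (median -0.30; all genes 10.5% and 13.4%). Rbl1, the pocket protein p107, fell by 1.96 (SE 0.12), and the E2F partners Tfdp2 and Tfdp1 fell by 1.39 (SE 0.12) and 1.01 (SE 0.09). All 20 proliferation genes were called lower at day 5 (median -2.02), such as Aurka (-1.99 ± 0.17) and Ccnb1 (-2.10 ± 0.19). At day 1, 10 of 20 were called lower, against 10.5% of all genes, and this fell to 5 without uninfected day 1 replicate 4, to 6 without exposed day 1 replicate 2 or 3 and to 4 without exposed day 1 replicate 4, with up to 14 without an exposed day 5 library. Of 17 genes that control the turnover of cyclins and inhibitors, 8 were called lower and 3 higher at day 5, against 28.4% and 28.6% of all genes. Cdc20, which is also on the proliferation list, fell by 2.29 (SE 0.20), and Cks1b, the cofactor that hands p27 to its ubiquitin ligase, fell by 1.41 (SE 0.17). Ubac1, a subunit of a ligase for p27, fell by 0.55 (SE 0.07).

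Of 14 regulators of the INK4 locus, 6 were lower and 3 higher at day 5 (median -0.14), in all 9 of 14 where 57% of all genes were called. Id1, a repressor of Cdkn2a transcription through ETS factors, went from 145 ± 5.08 to 14 ± 6.37 CPM (-3.37 ± 0.24, adjusted p = 3.83e-09), Ets2 rose by 1.58 (SE 0.15), and Ezh2, the methyltransferase of the Polycomb complex that silences the locus, fell by 1.74 (SE 0.17). Of 22 mitogen-signalling and transcription factor genes, 11 were lower and 6 higher (median -0.17), against 28.4% and 28.6% of all genes. Fos fell by 3.04 (SE 0.13), Klf4 by 1.62 (SE 0.08) and Myc by 1.54 (SE 0.09), the last from 140 ± 2.28 to 48.2 ± 6.47 CPM.

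Of 20 genes of the p53 pathway, which drives Cdkn1a, 7 were higher and 7 lower at day 5 (median -0.17), near the 28.6% and 28.4% of all genes. At day 1, 8 were higher and 0 lower (median 0.23), against 13.4% and 10.5% of all genes. Fas, a death receptor, rose at both days (1.69 ± 0.13 and 2.21 ± 0.13), as did Gadd45a, a stress gene (0.55 ± 0.11 and 1.25 ± 0.11). Btg2, an antiproliferative gene, was higher at day 1 (0.67 ± 0.09) and lower at day 5 (-1.10 ± 0.09), with a difference between days of -1.77 ± 0.13 (adjusted p = 1.27e-08).

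**Figure D5:**
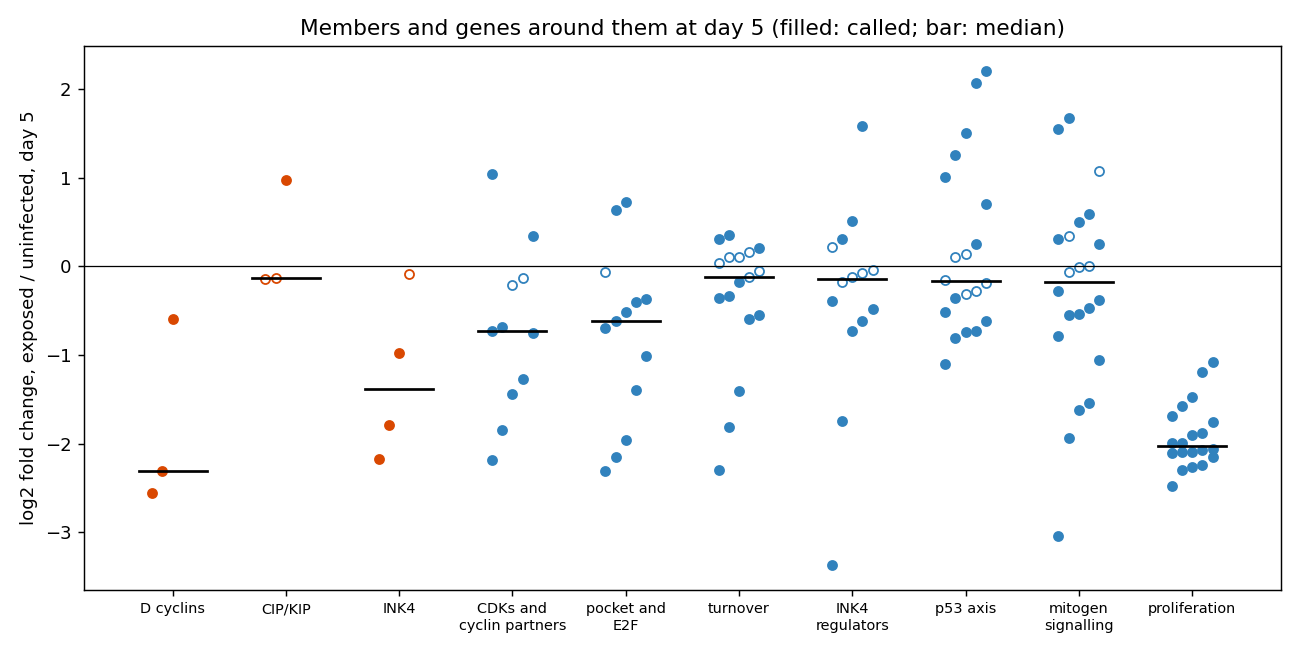
Log2 fold change between exposed and uninfected cells at day 5 (vertical axis) for the 10 genes by family (red) and for the genes of 7 lists around them (blue), with filled points for called genes and a bar at each median. The D cyclin and INK4 medians lie at -2.30 and -1.38 and that of the proliferation list at -2.02, whereas the other lists have points on both sides of 0.

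For the 4 genes with an absolute log2 fold change of at least 1, the genes with the nearest pattern over the 16 libraries were found by the root mean square difference of centred log2 CPM. Genes with no symbol, or with the symbol of a predicted, Rik, clone or pseudogene entry, were left out of that search. The medians given beside them are over all other genes tested. Those of Cdkn2c were the condensin genes Smc2 (0.134) and Ncapg2 (0.136) and the replication helicase gene Mcm2 (0.136), where the median gene lay at 1.10. Those of Ccnd3 were Naaa (0.0965), Rassf5 (0.140) and Epop (0.149), and those of Cdkn2a were Snn (0.167), Grtp1 (0.203) and Rnf227 (0.207), with median genes at 0.954 and 0.835. Ccnd1 had no neighbour as near: Tnfrsf18 (0.340), Fam89a (0.348) and Impa2 (0.390), with the median gene at 1.05.

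Promoters were read because 6 of the genes fell together. The RefSeq table (GRCm38.p6, an older build than that of the counts) held 11 start sites for 7 of the 10 genes: Cdkn1a, Cdkn1b, Cdkn2a, Cdkn2b, Cdkn2c, Cdkn2d and Ccnd3. The 250 bases before each start were searched on both strands for 4 spellings of the E2F motif (TTTCCCGC, TTTCGCGC, TTTGCCGC and TTTGGCGC) and for the E-box CACGTG that MYC binds. In GENCODE M21 exons cover all 250 bases of 1 of the Cdkn2c windows and 198 of the Cdkn2d window. Among these windows 1 E2F spelling was found, 99 bases before the p19ARF start of Cdkn2a, at chr4:89294685-89294744 on the minus strand, with the match in capitals.
Cdkn2a, p19ARF start: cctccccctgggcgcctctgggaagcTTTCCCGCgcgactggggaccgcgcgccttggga
The p16 start had none, and CACGTG was in none of the 11 windows. Of 32851 promoters in the table, 1.86% held an E2F spelling in such a window and 6.02% the E-box. A match describes letters, not a bound site.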

How the data were processed

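Polyadenylated RNA of 16 libraries was sequenced, 4 per group, with groups taken from the labels. STAR, of unstated version, and the GRCm39 assembly are named in the submitters' processing notes. Raw counts for each gene, on the reverse strand per the file names, are the deposited values, and checking found whole numbers with unequal totals. Symbols came from GENCODE M21 by identifier without version (52083 of 55359 genes), and lengths from its longest coding transcripts. The longest run of letters shared by coding transcripts of any pair of the 10 genes was 23 bases.

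Genes passing filterByExpr (17190) were fitted in 1 edgeR quasi-likelihood model (edgeR 4.0.16, R 4.3.3, TMM, robust, a mean per group, 16 libraries). Two-sided p-values were adjusted by Benjamini-Hochberg over the 17190 genes, and a gene was called under 0.05. On simulated data with the same dispersion in every group the fit was tested before use. A wider spread in exposed day 5 libraries was not simulated. CPM are counts divided by TMM-scaled totals. Log2 CPM for patterns and spread used a prior count of 2. The labels call the libraries biological replicates. Nothing says that they came from separate cultures, so p-values measure spread between libraries only. That spread was pooled, with 1 dispersion per gene over all 16 libraries, and is not that of the groups compared alone. The median SD of log2 CPM over all genes was 0.299 in exposed day 5. It was 0.113 in uninfected day 1, 0.144 in exposed day 1 and 0.148 in uninfected day 5 libraries. The exposed day 5 spread thus also enters p-values and SEs of comparisons without that group. Within groups the least different pair had a chi-square of 5.23 per degree of freedom.

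The 10 genes, 7 pathway lists (117 genes) and the marker lists were chosen with earlier results of these data known, and 1 marker list is not reported here. All 10 genes are described. From each pathway list the 3 genes with the smallest p at day 5 are named, with 3 pattern neighbours of each of the 10 called with a log2 change of at least 1. Outside this rule Cdk4 is named, chosen after its value was seen. Alternatives were DESeq2 1.42.0, RLE, other filters, other sets of libraries, the replicate block and other forms of the balance. Library totals alone and merged exon lengths were tried only once the data had been seen. Plots were made with matplotlib 3.10.9.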

Additional observations from a re-analysis of the deposited data

Results flagged for a closer look

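In 3 of 40 sets of 4 libraries (10 genes in 4 groups), 1 library lay far from the others by Dixon's criterion, where chance alone flags about 1 in 20 sets. Cdkn1a stood at 277.4 CPM in uninfected day 5 replicate 4, with the others at 304.8 to 310.4 CPM. Cdkn2a stood at 4.52 CPM in exposed day 5 replicate 1, with the others at 3.01 to 3.16 CPM. Ccnd2 stood at 1663 CPM in uninfected day 1 replicate 4, with the others at 1591 to 1598 CPM.

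The effect of exposure differed between day 1 and day 5 by the interaction test for 6 genes, each more negative at day 5: Cdkn2a by -1.999, Cdkn2c by -1.41, Cdkn2d by -0.75, Ccnd1 by -1.90, Ccnd2 by -0.59 and Ccnd3 by -2.04 (log2). With replicates 3 and 4 only, Cdkn2d and Ccnd2 lost that call.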

How the results depend on the processing

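Of 1285 values of single genes under the alternatives, 1178 kept their direction and their side of the threshold. At day 5 Ccnd1, Ccnd2, Ccnd3, Cdkn2a, Cdkn2c and Cdkn2d were called lower under every alternative run, each left-out library included. Cdkn1c rests on 18 to 90 counts per library. Where a value below changed, the cause was not tested. Fits on part of the libraries hold fewer of them and also take the dispersion of each gene from those libraries alone. Those on the groups compared alone called more genes at day 1 and between uninfected days than the fit reported. Scaling by library totals alone moved the median of all genes between exposed days by -0.105. Size factors cannot change a ratio within a library, so RLE was not run for the balance.

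Among the 10 genes, the day 1 fit restricted to the groups compared called 1 higher (Cdkn2b, 0.33, adjusted p = 0.0156) and added Cdkn2d to those lower (-0.22, adjusted p = 0.0138), while 0 were called lower at day 1 with replicates 1 and 2 only. At day 5, 0 were called higher with the filter of 1 CPM in 4 libraries, where Cdkn1c was not tested, and 0 with replicates 3 and 4 only. For the change between days, 1 was called higher by DESeq2 and 1 without the 2 LAQ libraries (Cdkn1c in each). Between uninfected days, 1 was called higher with replicates 1 and 2 only and 1 with replicates 3 and 4 only. Cdkn2c (-0.44 in the fit reported) was the 1 gene called lower between uninfected days by DESeq2, with RLE and in the fit on the groups compared alone. Between exposed days, 2 were called higher by DESeq2, with RLE and with no filter beyond 1 read (Cdkn1c and Cdkn2b), and 0 with replicates 1 and 2 only.

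Replicate numbers did not pair the libraries: same-numbered libraries had correlated deviations of -0.151 to 0.148, over 0.1 in 3 of 24 pairs, and 3 of 16 libraries correlated best with their own number. With the replicate block the single change of a call among the 10 genes was that of Cdkn2c between uninfected days, where 1 gene was called lower (-0.45, adjusted p = 0.0288).

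Over all genes, the fit on the groups compared alone called 3650 higher and 3371 lower at day 1 and 3386 higher and 3038 lower between uninfected days. Replicates 1 and 2 only gave 813 and 406 at day 1, 1481 and 1675 for the change between days and 422 and 187 between uninfected days. Replicates 3 and 4 only gave 568 and 156, 811 and 1083, and 386 and 195, and 2467 and 2480 between exposed days. Without the 2 LAQ libraries 2894 were lower at day 1, and 2800 were higher and 2513 lower between uninfected days.

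Directions turned where changes were near 0 or not called. For Cdkn1a the change between days was 0.0101 by DESeq2 and 0.0101 with RLE, and exposed days differed by -0.0492 with library totals alone. For Cdkn1b exposed days differed by 0.00226 by DESeq2, 0.00220 with RLE, 0.00776 with the 1 CPM filter and 0.00600 with replicates 1 and 2 only. Cdkn1c at day 1 was 0.452 with replicates 1 and 2 only, Cdkn2a between uninfected days -0.0148 with replicates 3 and 4 only, and Cdkn2b at day 5 0.130 with replicates 1 and 2 only. Cdkn2d between uninfected days was 0.0126 with the 1 CPM filter, 0.00523 in the fit on the groups compared alone and 0.0217 with replicates 1 and 2 only. Ccnd2 at day 1 was -0.0300 by DESeq2, -0.0300 with RLE, -0.0243 with no filter beyond 1 read, -0.0629 with replicates 3 and 4 only, -0.000467 without the LAQ libraries and -0.0110 with library totals alone.

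The log2 balance by group (uninfected day 1, exposed day 1, uninfected day 5, exposed day 5) was -1.92, -1.995, -1.93 and -1.51 without division by length. It was -3.29, -3.05, -3.73 and -2.56 as mean log2 CPM and -1.99, -2.07, -2.10 and -1.98 without Cdkn1a. With merged exon lengths it was -0.325, -0.408, -0.379 and -0.0187. Exposed minus uninfected was 0.237 at day 1 as mean log2 CPM (reversed), and at day 5 1.17 as mean log2 CPM, 0.130 without Cdkn1a and 0.361 with merged exon lengths.

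With each library left out in turn, genes called between uninfected days ranged from 1227 to 2436 higher and from 881 to 2221 lower, the least without uninfected day 5 replicate 4. Of the 10 genes, 0 to 1 were called lower and 3 to 4 higher between uninfected days, 0 to 1 higher for the change between days and 1 to 2 higher between exposed days. Those called lower ranged from 2 to 3 at day 1, from 6 to 8 at day 5 and from 6 to 8 for the change between days. Each 8 came without exposed day 5 replicate 2, which added Cdkn1a and Cdkn1b at day 5 and Cdkn1b and Cdkn2b for the change. The members' median SD in exposed day 5 libraries ranged from 0.190 without replicate 1 to 0.363 without replicate 3. Ranges of uncalled changes that crossed 0 were, at day 5, -0.314 to 0.0170 for Cdkn1a (called at its lowest, without exposed day 5 replicate 2) and -0.247 to 0.0375 for Cdkn2b. At day 1 they were -0.201 to 0.178 for Cdkn1c and -0.0212 to 0.0300 for Ccnd2, and for the change between days -0.220 to 0.111 for Cdkn1a. Between exposed days they were -0.101 to 0.229 for Cdkn1a and -0.0817 to 0.0246 for Cdkn1b, and between uninfected days -0.00914 to 0.370 for Cdkn1c and -0.0155 to 0.0109 for Cdkn2d. Of the 20 proliferation genes, 10 were called lower at day 1; this became 0 with replicates 1 and 2 only, 3 with replicates 3 and 4 only, 5 with no filter beyond 1 read and 19 when only the groups compared were fitted.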
